A study of Mus musculus with 16 samples.

Results

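The CpG sites described here are the thinly sequenced part of a LINE1 bisulfite amplicon from mouse embryonic stem cells. Members were chosen by coverage: a site was taken when it had fewer than 10 calls in at least 1 of the 16 libraries and at least 80 calls summed over all 16. This gave 9638 sparse sites of 49722 listed in any library. They held 7.45% of all calls, against 89.8% at the 10185 well-covered sites with at least 10 calls in every library. The remaining 29899 sites had too few calls for either set. The rule used coverage alone, so coverage is given as a description, while methylation levels were not used to choose the sites.

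Genomic DNA was treated with bisulfite, amplified with LINE1 primers and sequenced. Unmethylated C is then read as T, and methylation is estimated as C calls over all C and T calls. All cells were of the J1 (129S4/SvJae) background, grown in serum with LIF and 2i, and the groups were the wild type (wtJ1), the knockout of Uhrf1 (labelled Uhrf1 KO) and 2 point mutants of Uhrf1, H730A and F46A. Each had 4 libraries, described as biological replicates. The sources used here do not say whether a genotype was 1 clone or whether its replicates were separate cultures, so p-values of library levels measure the spread between these samples. Those of single sites rest mainly on counting error, as given below.

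LINE1 elements are retrotransposons spread over the mouse genome in large numbers, and methylation of their CpGs is one of the layers that keep them silent. After replication the new strand is unmethylated. UHRF1 binds the hemimethylated DNA, ubiquitinates histone H3 through its RING domain and brings in DNMT1, the maintenance methyltransferase. As background, H730A lies in the RING domain and F46A in the ubiquitin-like domain. Genotypes come from the labels, since LINE1 reads do not cover the Uhrf1 locus.

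Sparse sites were mostly whole copies of low coverage. Sites of the same strand lying within 200 bp of the next were joined into 1252 stretches, of which 528 held sparse sites and no well-covered site (sparse-only), 226 held both and 498 held well-covered sites alone. The sparse-only stretches contained 7037 of the 9638 sparse sites. Calls summed over the libraries ranged from 80 to 585 per sparse site with a median of 129, against a median of 1039 at well-covered sites. A sparse site had fewer than 10 calls in a median of 11 libraries, 682 sites in 1 library and 674 in all 16. Library totals ran from 998982 to 1287040 calls. The shallowest was F46A replicate 3, where 80.7% of sparse sites had fewer than 10 calls and 113 had none, and 151 sites were members through that library alone. With no molecular identifiers on the PCR reads, limits from call numbers cover counting error only.

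One sparse-only copy lies in the promoter window of the lncRNA gene Gm35240 around its start (RefSeq, GRCm38.p6), and it shows what the amplicon reads. The copy spans chr12:77553483-77553649 and its CpGs were called on the minus strand, so the sequence is given on that strand. Capitals mark the 10 sparse CpGs.
Gm35240 copy: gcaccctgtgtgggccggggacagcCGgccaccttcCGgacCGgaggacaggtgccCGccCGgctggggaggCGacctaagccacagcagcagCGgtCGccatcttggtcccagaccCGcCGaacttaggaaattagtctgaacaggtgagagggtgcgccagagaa
These 10 CpGs shared the same reads, and wtJ1 had 24 calls at each, Uhrf1 KO 23, H730A 16 and F46A 18. Their pooled level in wtJ1 replicates 1 to 4 was 2.86, 25.0, 15.7 and 15.0%. It was 1.11, 1.67, 0 and 0% in Uhrf1 KO, 0, 0, 10.0 and 0% in H730A, and 2.50, 0, 3.33 and 3.33% in F46A. These levels rest on 1 to 9 calls per site in a library, with 1 in H730A replicate 1 and 2 in F46A replicate 2. The wtJ1 replicate with the lowest level overlapped the mutants. The whole stretch of 21 sparse sites, which holds 2 amplicon units, was lower than wtJ1 in Uhrf1 KO (adjusted p = 2.65e-05), H730A (adjusted p = 0.000887) and F46A (adjusted p = 0.00107) in the quasi-binomial model described below. That model counts each CpG call separately, so reads shared between CpGs are allowed for only through its dispersion between libraries. Expression of this gene was not measured.

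Spacing between CpGs placed 9521 sparse sites on a template of 15 amplicon positions, and 117 lay off it. Among copies with 1 amplicon unit, 456 were sparse-only and 452 well-only. A CpG at position 18 was present in 64.7% of the sparse-only and 37.4% of the well-only copies. Positions 25, 34 and 49 were the other way round, at 29.4, 54.2 and 59.9% of sparse-only against 57.3, 81.9 and 83.8% of well-only copies. Position 150 was listed in 83.8 and 96.9%. A site of a thin copy needs 80 calls to be listed as present, so these shares depend in part on the coverage rule. Of the sparse-only stretches 165 of 528 lay in a gene span, against 144 of 498 well-only stretches.

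**Figure D1:**
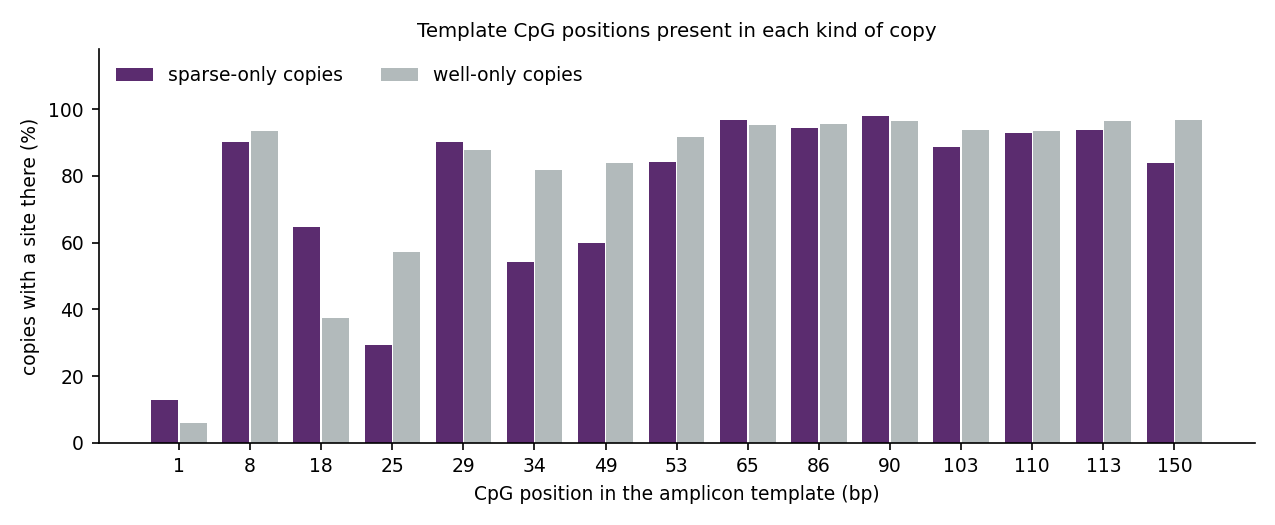
Share of copies with 1 amplicon unit that have a counted CpG at each of the 15 template positions (x axis, bp, evenly spaced). Dark bars are the 456 sparse-only copies and light bars the 452 well-only copies, and position 18 stands higher in the sparse-only copies while positions 25, 34 and 49 stand lower.

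Sparse LINE1 sites lost most of their methylation in all 3 mutants. In wtJ1 replicates 1 to 4 the pooled level was 27.2, 27.5, 28 and 27.9%. It was 4.60, 4.80, 4.76 and 4.74% in Uhrf1 KO, 7.79, 7.77, 8.95 and 6.99% in H730A, and 5.63, 5.02, 4.25 and 6.38% in F46A. No mutant library overlapped wtJ1, and every H730A library lay above every Uhrf1 KO and F46A library, while F46A libraries fell on both sides of the knockout. As means, wtJ1 was at 27.8% ± 0.341 (SD, n = 3), Uhrf1 KO at 4.73% ± 0.0867 (SD, n = 4), H730A at 7.87% ± 0.808 (SD, n = 4) and F46A at 5.32% ± 0.902 (SD, n = 4). The wtJ1 replicates 1 and 2 were averaged and entered as 1 sample in every mean and SD, because they differed by less than the sampling noise in coverage and in level at sparse sites (chi-square test of the calls, p = 0.941 and 0.269). At well-covered sites their levels differed beyond it (chi-square test of the calls, p = 0.0359), and the average was used there too. Other pairs met the same criterion at sparse sites and were kept apart, among them wtJ1 replicates 3 and 4 and Uhrf1 KO replicates 1 and 4, so the choice of this pair alone was not settled by the test. Tests used all 4 libraries.

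Uhrf1 KO retained 17.0% of the wtJ1 level, H730A 28.4% and F46A 19.2%. Uhrf1 KO differed from wtJ1 by -22.9 percentage points (95% interval -23.4 to -22.4), H730A by -19.8 (-21.0 to -18.3) and F46A by -22.3 (-23.7 to -20.9), each with an adjusted p of 0.0286 in the exact two-sided permutation test. H730A was 3.15 points above Uhrf1 KO (95% interval 2.19 to 4.35, exact permutation test, adjusted p = 0.0429), and F46A was 2.55 points below H730A (first minus second -2.55, 95% interval -4.70 to -0.614, adjusted p = 0.0429, same test). F46A and Uhrf1 KO differed by 0.596 points (95% interval -0.550 to 1.78, exact permutation p = 0.314), so no difference was detected. The smallest p for 4 against 4 libraries is 0.0286, and for 3 against 4 it is 0.0571, so these comparisons cannot pass with wtJ1 counted as 3 or with a library left out.

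**Figure D2:**
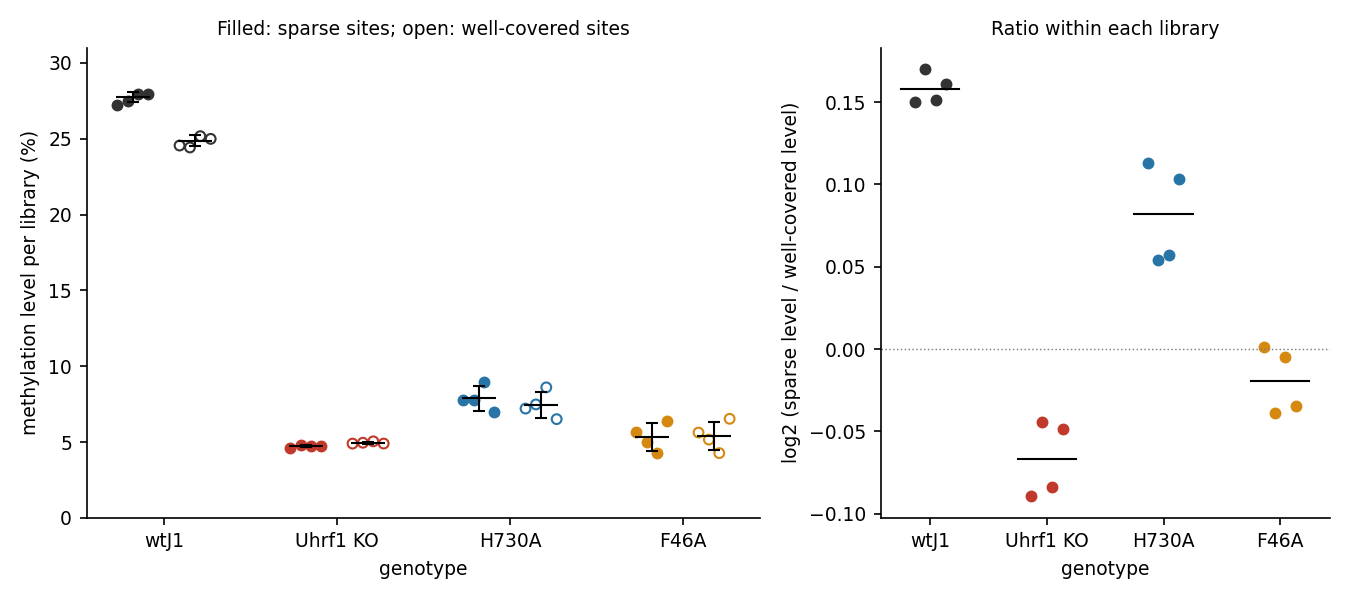
Left, methylation level (%) of each library at sparse sites (filled) and at well-covered sites (open), with the mean and SD per genotype (n = 3 for wtJ1, with replicates 1 and 2 averaged, and n = 4 otherwise). Right, the log2 ratio of the 2 levels within each library, with a bar at the mean of the 4 libraries, which is above 0 in wtJ1 and H730A and below 0 in Uhrf1 KO.

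Sparse sites were more methylated than well-covered sites in all 4 wild-type libraries and less methylated in all 4 knockout libraries. The smallest exact sign-flip permutation p for 4 libraries is 0.125, so no genotype can pass alone. At well-covered sites wtJ1 was at 24.9% ± 0.353 (SD, n = 3), Uhrf1 KO at 4.95% ± 0.0695, H730A at 7.45% ± 0.872 and F46A at 5.40% ± 0.943 (SD, n = 4 each). The ratio of the sparse to the well-covered level averaged 1.12 for wtJ1, 0.955 for Uhrf1 KO, 1.06 for H730A and 0.987 for F46A. All 4 libraries of wtJ1 and of H730A were above 1, all 4 of Uhrf1 KO below 1, and 1 of the F46A libraries above. This depended on the sites compared. Within stretches that hold both kinds of site the H730A ratio was 0.987, with libraries from 0.948 to 1.01. A Uhrf1 KO library reached 1.01 when sparse meant under 20 calls, and 1.01 when sparse-only were set against well-only stretches. Over the 16 libraries together the mean log2 ratio was 0.039 (exact sign-flip permutation p = 0.116, higher in 9 libraries and lower in 7), and within the same stretches it turned to -0.060 (p = 0.0305, same exact test). In several other settings, given below, it passed with the sparse level higher. This mean mixes genotypes with ratios above and below 1, so it describes no single genotype.

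On the log2 scale the ratio differed from wtJ1 by -0.22 for Uhrf1 KO, -0.08 for H730A and -0.18 for F46A, and between mutants by 0.15 for H730A against Uhrf1 KO and -0.10 for F46A against H730A. Each had an adjusted p of 0.0286 in the exact two-sided permutation test. F46A against Uhrf1 KO, at 0.05, had the same p but lost it when sites were matched by template position (0.033, adjusted p = 0.143) and turned sign within stretches that hold both kinds of site (-0.011, adjusted p = 0.914, same test). H730A against Uhrf1 KO and F46A against H730A also lost it, within the same stretches (0.113 and -0.124, adjusted p = 0.129 each), with at least 160 summed calls (0.143 and -0.111, adjusted p = 0.0857 and 0.129) and with 5 calls in every library (0.140 and -0.112, adjusted p = 0.0857 each, same exact permutation test). The H730A difference from wtJ1 missed 0.05 with 5 calls in every library (-0.079, adjusted p = 0.0857) and when every site kept the same weight in all libraries (adjusted p = 0.0571, same exact permutation test).

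Levels at the edge of the rule are given without a test. The 395 sparse sites whose lowest library had 9 calls were at 25.9% ± 1.02 in wtJ1 (SD, n = 3), and the 307 well-covered sites whose lowest library had 10 calls at 29.5% ± 0.709. The 537 sites with 80 to 84 summed calls were at 25.8% ± 1.17, and the 548 with 75 to 79 calls, which were left out, at 25.3% ± 0.828.

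The wild-type level went with the ratio of wtJ1 to Uhrf1 KO coverage, but did not rise steadily with coverage itself. From the class of sparse sites with fewest summed calls to that with most, wtJ1 was at 25.9, 26.4, 31.03 and 27.6%. Of the sparse sites, 1371 (14.2%) had over 1.5-fold more calls for the library size in wtJ1 than in Uhrf1 KO, against 3.97% of well-covered sites. Over 1.5-fold fewer calls were found at 7.06% of sparse and 1.60% of well-covered sites. Sparse sites had fewer calls, so counting error in this ratio is larger there, and its part in these shares was not tested. Those 1371 sites were at 36.1% ± 0.636 in wtJ1 (SD, n = 3), the 7587 sites within 1.5-fold at 26.1% ± 0.551, and the 680 with over 1.5-fold fewer calls at 22.3% ± 0.778. In Uhrf1 KO the same sets were at 5.27% ± 0.201, 4.68% ± 0.0940 and 4.43% ± 0.357 (SD, n = 4). Well-covered sites of the same 3 kinds were at 34.03, 24.7 and 17.7% in wtJ1, so the gradient was there too. The part of coverage in the difference between sparse and well-covered sites was not tested. Sparse-only copies with 13 to 15 template CpGs were at 36.5% ± 0.310 in wtJ1 (SD, n = 3), against 25.7% ± 0.357 in well-only copies of that CpG number. In the other classes of CpG number the 2 kinds of copy were closer in wtJ1, at 27.6 and 27.1% with 6 to 10 CpGs, 24.7 and 23.0% with 11, and 25.8 and 25.4% with 12. In Uhrf1 KO the copies with 13 to 15 CpGs were at 5.09% ± 0.365 and 5.04% ± 0.0654 (SD, n = 4). Members in genes (2935 sites) were at 27.7% ± 0.378 in wtJ1 and those outside genes at 27.8% ± 0.333 (SD, n = 3).

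H730A kept more methylation than the knockout at some CpGs of the amplicon and not at others. At position 113 the 795 sparse sites were at 14.0% in H730A and 3.03% in Uhrf1 KO, a difference of 10.96 points (95% interval 9.46 to 12.1). At position 8 it was 8.88 against 1.18%, a difference of 7.71 points (6.83 to 8.44). Positions 34 and 65 followed, with 5.69 and 5.03 points. In all, 9 of the 15 positions were higher in H730A and 0 lower, each with an adjusted p of 0.0476 in the exact two-sided permutation test over the 15 positions, and the share over the positions tested is 60%. All 9 had the smallest p that this test allows, 0.0286, so they share an adjusted p and pass or fail together. Positions 18, 29, 86, 103 and 150 were the others, with 2.26 to 3.82 points.

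Positions 1, 25, 49, 53, 90 and 110 did not pass. At position 90 Uhrf1 KO stood at 11.3% and H730A at 9.35%, a difference of -1.99 points (95% interval -2.94 to 0.377, exact permutation test, adjusted p = 0.195), and at position 53 the values were 7.58 and 7.28%. Position 90 was the position with the highest knockout level, and position 49 the one with the highest wild-type level, 35.3% ± 0.517 (SD, n = 3). At well-covered sites the H730A excess was 10.7 points at position 113, 6.40 at position 8 and -2.61 at position 90. The position pattern was known from well-covered sites of these libraries. At position 1 the 79 sparse sites were at 0.105% ± 0.182 in wtJ1 (SD, n = 3). That position held almost no methylation to retain, so its result says little about H730A.

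**Figure D3:**
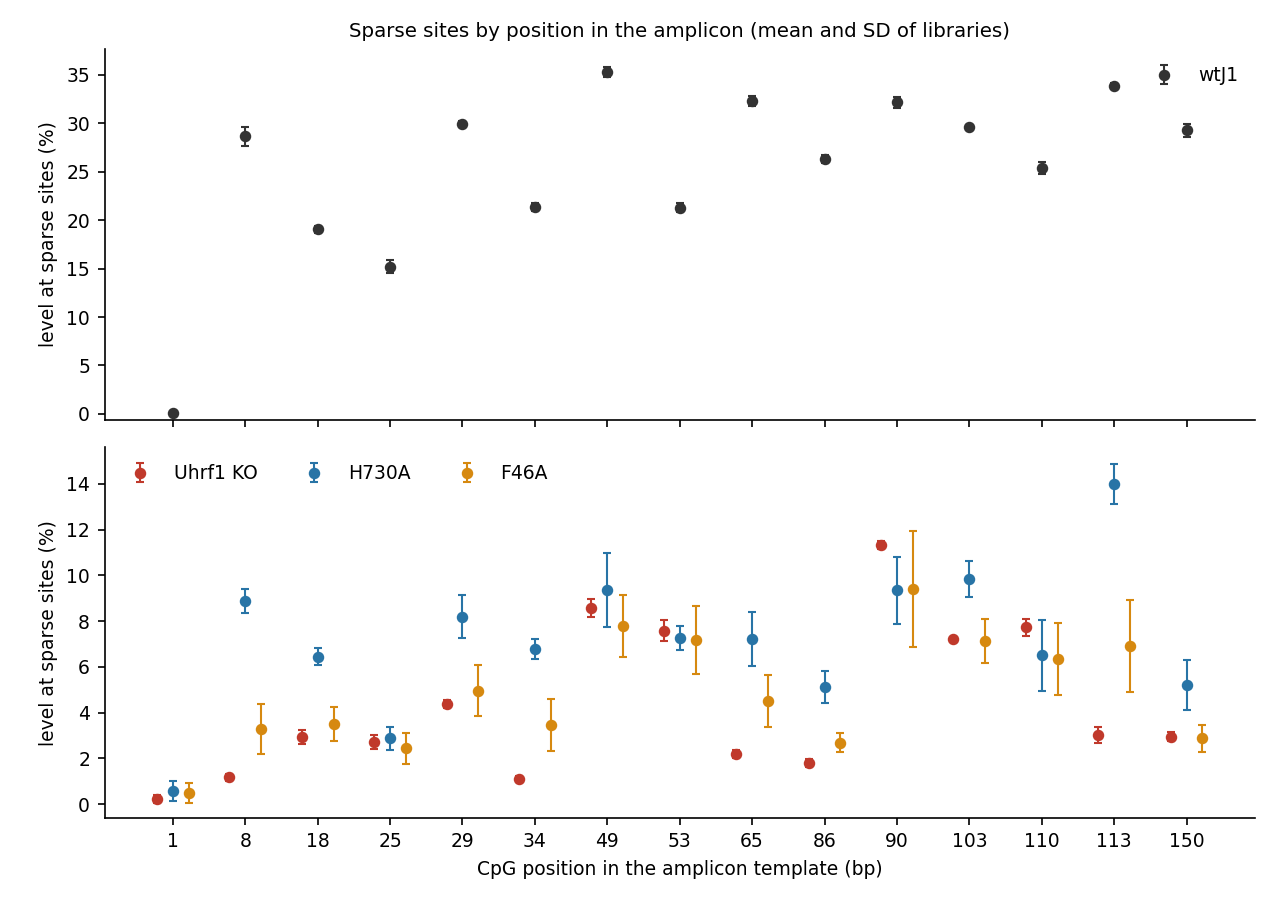
Level (%) at sparse sites by CpG position in the amplicon template (x axis, bp, positions evenly spaced), with points at the mean of the libraries and bars showing the SD (n = 3 for wtJ1 and n = 4 for each mutant). The upper panel is wtJ1 and the lower panel the mutants, where H730A stands 10.96 points above Uhrf1 KO at position 113 and no higher than Uhrf1 KO at positions 53, 90 and 110.

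Single sites were tested with a quasi-binomial model of C and T calls, over sparse and well-covered sites together, with Benjamini-Hochberg adjustment at 0.05. Between 7767 and 8712 of the 9638 sparse sites had the 20 calls per group that the test needs. Against wtJ1, 6061 of 8712 sparse sites fell in Uhrf1 KO, 4209 of 8153 in H730A and, in F46A, 5072 of 8049. The share of all tested sites that fell was 83.4% for Uhrf1 KO, 74.6% for H730A and 81.1% for F46A, against 69.6, 51.6 and 63.0% of sparse sites, which had fewer calls. Their median difference was -21.2 points for Uhrf1 KO, -18.2 for H730A and -20.7 for F46A, beside -20.0, -17.5 and -19.7 at well-covered sites. Over 4 forms of the model the sparse sites passing in either direction numbered 5060 to 6063 for Uhrf1 KO, 3125 to 4212 for H730A and 4217 to 5136 for F46A. Without F46A replicate 1 the F46A count was 3378. A minimum of 40 calls per group, which tests fewer sites, gave 1911, 1511 and 1561.

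Between mutants the number of sparse sites that pass was not settled by these data. In the form of the model reported here, 355 of 8368 sparse sites were higher and 27 lower in H730A when set against Uhrf1 KO, where 16.7% of all tested sites were higher and 1.01% lower. The 4 forms of the model gave 21 to 382 sparse sites in all. The form with the fewest counts every library in the degrees of freedom, and the other 3 gave 147 to 382. Fisher's exact test gave 183, limma on logit values 215, and leaving out any 1 Uhrf1 KO library gave 219 to 242. The direction did not depend on the form: higher sites outnumbered lower ones in each of the 4.

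F46A and H730A differed at 29 lower and 2 higher sparse sites of 7767 (5.41 and 0.0891% of all tested sites), with 0 to 31 over the 4 forms. Without H730A replicate 1, F46A replicate 1 or F46A replicate 3 the count was 20, 11 or 17. F46A and Uhrf1 KO differed at 3 higher and 0 lower sparse sites of 8147 (2.40 and 0.0600% of all tested sites), with 0 to 3 over the forms, 1 without Uhrf1 KO replicate 1, 2 or 4, and 15 without F46A replicate 3. For that pair 481 of 8147 sparse and 1830 of 10185 well-covered sites had an unadjusted p under 0.05 in the quasi-binomial model. A share of about 0.05 is expected under that threshold where nothing differs. The median dispersion lay between 1.03 and 1.17, so site p-values rest mainly on counting error, and a shift shared by a whole library is not in them.

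When calls were summed per stretch, nearly all sparse-only stretches fell. The sparse-only stretches hold 614 amplicon units, so a stretch can be more than 1 copy. Each CpG call counts separately here too, and reads shared between CpGs enter only through the dispersion. Of 528, those lower than wtJ1 numbered 521 in Uhrf1 KO, 497 in H730A and, for F46A, 514, with 0 higher, in the same model. Over all 1252 stretches the shares were 99.4, 97.5 and 98.9%. The median over sparse-only stretches was 25.4% for wtJ1, 4.72% for Uhrf1 KO, 7.41% for H730A and 5.31% for F46A. H730A was higher than Uhrf1 KO in 69 and lower in 1 of the 528, where 39.9 and 0.240% of all stretches passed, and the count was 45 without Uhrf1 KO replicate 1 and 197 in Fisher's exact test, which holds no spread between samples. F46A was lower than H730A in 15 and higher in 0 (17.7 and 0% of all stretches), with 15 to 32 over the 4 forms of the model. That count was 7, 8, 5, 6 or 8 without H730A replicate 1 or 2 or F46A replicate 1, 2 or 3. F46A and Uhrf1 KO differed in 0 in the quasi-binomial model, with 15 of 528 at an unadjusted p under 0.05 and 18 in Fisher's exact test. Of the 724 stretches with a well-covered site, 64 had an unadjusted p under 0.05 in the quasi-binomial model.

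**Figure D4:**
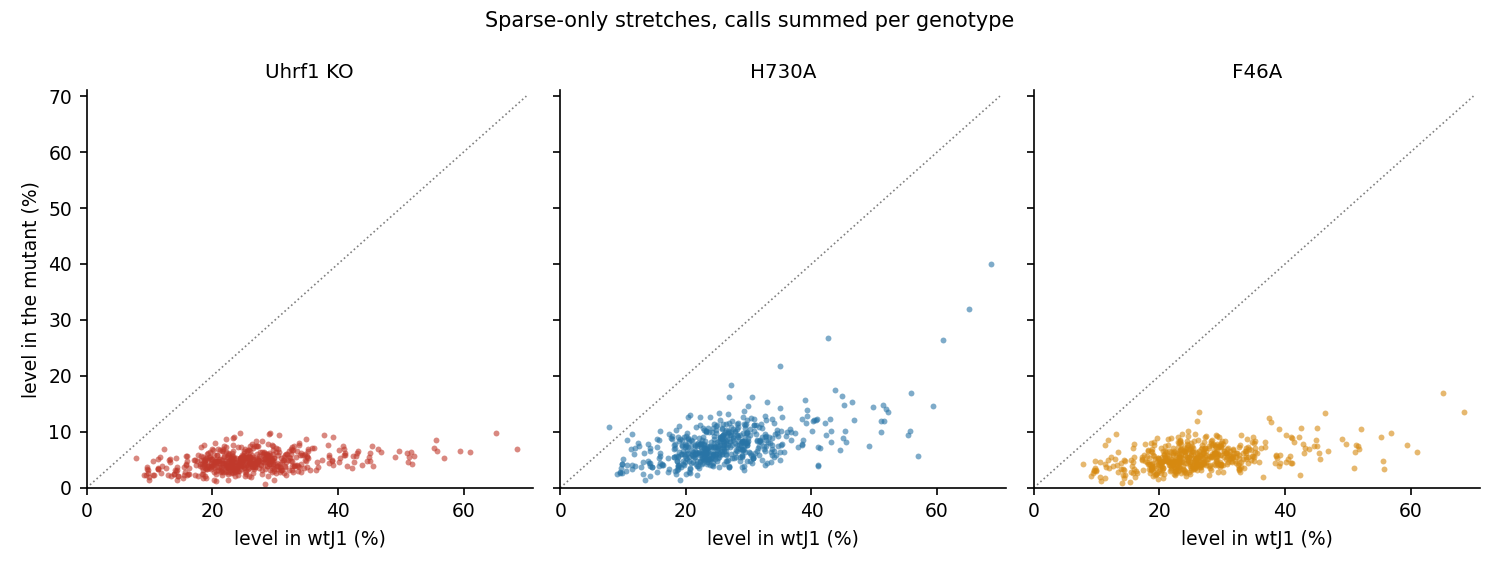
Each point is 1 of the 528 sparse-only stretches, with its level in wtJ1 (x axis, %) against its level in Uhrf1 KO, H730A or F46A (y axis, %), from calls summed over the 4 libraries of a genotype. The dotted line marks equal levels, and 528, 527 and 528 of the points lie below it in Uhrf1 KO, H730A and F46A.

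The stretch with the highest wild-type level kept much of it in H730A. It is sparse-only, with 20 sites in 2 amplicon units at chr11:7926910-7927266 on the minus strand, in no annotated gene span. It was chosen after its values were seen. Its level was 71.1, 74.8, 66.1 and 62.9% in wtJ1 and 6.40, 9.52, 8.15 and 3.77% in Uhrf1 KO. H730A had 30.8, 46.2, 34.7 and 47.8%, and F46A 8.37, 18.1, 16.4 and 15.1%. The H730A libraries lay between wtJ1 and the other 2 mutants with no overlap. H730A was 33 points above Uhrf1 KO (adjusted p = 4.18e-07) and F46A 26.4 points below H730A (adjusted p = 0.00164) in the quasi-binomial model.

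Within this stretch, the site chr11:7927240 at template position 34 had the largest H730A excess over the knockout by the naming rule. Its levels were 37.5, 60, 58.3 and 75% in H730A and 0, 0, 9.09 and 0% in Uhrf1 KO, from 8 to 12 and 9 to 17 calls per library. The groups did not overlap, and the difference over summed calls was 57.4 points (adjusted p = 2.16e-08, quasi-binomial model). Its neighbour chr11:7927256 at position 18 had the largest fall in Uhrf1 KO, from 32 of 39 calls methylated in wtJ1 to 1 of 44, or -79.8 points (adjusted p = 9.28e-15, same model).

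A copy inside Itgbl1, which encodes an integrin beta-like protein, was also higher in H730A than in the other mutants. It too was chosen after its values were seen. The stretch chr14:123723372-123723514 on the plus strand was at 51.8, 65.5, 79.5 and 58.3% in wtJ1 and 5.11, 10.0, 10.2 and 1.82% in Uhrf1 KO. It was at 23.6, 23.9, 19.7 and 36.4% in H730A and 6.49, 12.7, 3.03 and 1.82% in F46A. H730A lay above both other mutants in every library, 20.0 points above Uhrf1 KO (adjusted p = 0.000273, quasi-binomial model). At its position 113, chr14:123723477, H730A had 16 of 33 calls methylated and Uhrf1 KO 1 of 44, or 46.2 points more (adjusted p = 2.00e-05 in that model).

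The third of these stretches, chr6:18585891-18586033, also chosen after its values were seen, had unequal coverage. Over its 10 sites wtJ1 was at 63.8% ± 6.28 (SD, n = 3), Uhrf1 KO at 9.66% ± 3.02, H730A at 30.2% ± 6.69 and F46A at 17.8% ± 12 (SD, n = 4 each). They had 676 calls in wtJ1 and 385 in H730A, but 144 in Uhrf1 KO and 165 in F46A. Whether the unequal calls bear on the levels was not tested.

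One site in Lrfn5, a synaptic adhesion gene, had the largest fall in H730A by the naming rule. At chr12:61633192 it went from 45 of 64 calls in wtJ1 to 1 of 36, or -67.5 points (adjusted p = 5.02e-11, quasi-binomial model). The sites chr1:13737124 and chr10:16692413, both at position 86, were named by the rule in all 3 mutants. The first was at 85.7, 82.4, 77.3 and 68.4% in wtJ1 and 0, 0, 0 and 9.09% in Uhrf1 KO, and the second had 0 of 39 methylated calls in Uhrf1 KO, which allows up to 7.69%, after 34 of 50 in wtJ1.

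Other sites that the rule named against wtJ1 lay in B230209E15Rik (chr7:61570416), Wnk3 (chrX:151238678), 1700019D03Rik (chr1:52939926), Gbp9 (chr5:105093316) or outside genes (chrX:127376795, chr11:7926974 and chr12:32418572). Their falls ran from -60.0 to -70.1 points. Gbp9 encodes an interferon-induced GTPase, and its site went from 51 of 73 methylated calls in wtJ1 to 1 of 49 in F46A.

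Few sparse sites went the other way, and these rest on very few calls. Those higher than wtJ1 numbered 2 for Uhrf1 KO, 3 for H730A and 1 for F46A (0.0106, 0.0273 and 0.0219% of all tested sites), with 0 to 2, 1 to 3 and 0 to 1 over the 4 forms of the model. By the rule, chr1:33408048 had 5 of 48 methylated calls in H730A and 0 of 28 in wtJ1, which allows up to 10.7% (adjusted p = 0.0481). Named after their values were seen, chr10:106391283 had 3 of 29 in Uhrf1 KO (adjusted p = 0.0488) and chr3:158101569, in Lrrc7, 3 of 24 in H730A (adjusted p = 0.0469, all in the quasi-binomial model). None of these 3 passed Fisher's exact test or all 4 forms of the model.

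Between H730A and Uhrf1 KO the rule also named chr1:107823617 and chr3:91127493 as higher, by 43.5 and 42.1 points. At chr3:91127493 H730A stood at 62.5, 30.0, 45.5 and 46.2%, Uhrf1 KO at 0, 9.09, 0 and 0% and wtJ1 at 45.5, 16.7, 33.3 and 25.0%, so H730A and wtJ1 overlapped. The lower sites were chr8:49982315, chr16:16507210 in Fgd4, chr10:31055101 in Gm30676 and chr11:45725852 in Gm39816, of which 3 are at position 90. At the first, Uhrf1 KO stood at 40.0, 22.2, 28.6 and 28.6% and H730A at 0% in all 4 libraries, with 0 of 32 calls, which allows up to 9.38%. All 4 missed the threshold in the form of the model with every library in the degrees of freedom.

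F46A was lower than H730A at chr11:7927240, chr3:91127483, chr14:123723429 in Itgbl1 and chr12:101142936, by -22.8 to -43.2 points. Among the higher sites, chr6:59199951, named after its values were seen, had 8 of 51 against 0 of 51 methylated calls (adjusted p = 0.0332, quasi-binomial model). These 5 calls were lost in the form of the model with every library in the degrees of freedom. F46A was higher than Uhrf1 KO at chr19:33286527, chr8:52307355 and chr9:95292306, also named after their values were seen, with 15 of 56 against 3 of 66, 8 of 62 against 0 of 65 and 8 of 47 against 0 of 58 methylated calls (adjusted p = 0.0370, 0.0444 and 0.0256, quasi-binomial model). With 1 library left out in turn, these calls were kept in 4, 1 and 2 of 8 refits. The other forms of the model called 0, 0 and 1 sparse sites for this pair.

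The most deeply read sparse sites form 1 copy at chr13, with 585 calls at each of 4 sites, 80 of them in wtJ1 and 181 in Uhrf1 KO. At chr13:61833842, position 113, the levels were 48.4, 25.0, 35 and 44.4% in wtJ1 and 7.84, 0, 2.04 and 2.13% in Uhrf1 KO. H730A had 11.4, 23.4, 11.8 and 10.0% and F46A 4.08, 4.88, 6.90 and 6.06%. H730A lay above Uhrf1 KO and F46A in all libraries and below wtJ1. At chr13:61833869, position 86, Uhrf1 KO had 0 of 181 methylated calls, which allows up to 1.66%, and H730A 10 of 172. The 2 sites between them, at positions 103 and 110, were at 3.96 and 3.02% in Uhrf1 KO and 9.13 and 6.89% in H730A.

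Of the 4 stretches with the most sparse sites, 2 held no well-covered site. The one at chr1:107822974-107823759 (48 sparse sites) was at 24.1% ± 2.17 in wtJ1 (SD, n = 3) and at 3.36% ± 0.654 in Uhrf1 KO and 6.92% ± 2.10 in H730A (SD, n = 4). The one at chr12:96510816-96511594 (46 sparse sites) was low already in wtJ1, at 11.1% ± 3.03, and at 2.66% ± 0.954 in Uhrf1 KO. In the other two, at chr13:26440882-26442084 (51 sparse sites) and, in 1700111N16Rik, chrX:69937066-69938480 (46), the sparse sites were at 28.2% ± 1.67 and 32.2% ± 7.22 in wtJ1 and at 5.12% ± 0.801 and 5.60% ± 0.320 in Uhrf1 KO.

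Few sparse sites kept high methylation in the knockout. Of 7208 sparse sites with enough calls for this count, 25 (0.347%) were at 25% or more in Uhrf1 KO, beside 14 of 10185 well-covered sites (0.137%). Among sites with 40 calls in every genotype, chr6:65215929 at position 29 was the highest in Uhrf1 KO, at 37.5, 42.9, 15.8 and 10.0%, with 53.3 to 70.4% in wtJ1, 27.3 to 60% in H730A and 10.0 to 45.5% in F46A. The mutants overlapped there. Chr9:25233609 in Gm29642, also at position 29, had 10 of 44 methylated calls in Uhrf1 KO and 28 of 62 in H730A. The others by the rule were chr8:58160147 in Galntl6, chr1:165527245 in Adcy10, which encodes soluble adenylyl cyclase, and chrX:64889918. The last 2 are at position 90, with 12 of 55 and 16 of 74 methylated calls in Uhrf1 KO and 1 of 55 and 6 of 75 in H730A. They were chosen for their knockout level, so it is a description.

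Host genes were counted from lists by span alone. No share over all genes is given beside them, and a longer span can hold more copies, so the counts are a description. No list gene among 28 pluripotency genes, 22 germline genes, 21 genes of the methylation machinery or 25 of heterochromatin and retroelement control had a sparse site in its span (0 sites). The list of imprinted genes held 1 stretch of 10 sites, in the overlapping spans of Snrpn and Snhg14, at 31.9% ± 10.7 in wtJ1 (SD, n = 3) and 5.96% ± 1.03 in Uhrf1 KO (SD, n = 4), and 9, 6 and 8 of its 10 sites fell in Uhrf1 KO, H730A and F46A, beside 83.4, 74.6 and 81.1% of all tested sites and 69.6, 51.6 and 63.0% of sparse sites. Very long genes, among them Dmd, the dystrophin gene, and Cntnap2, held 190 sparse sites in 14 genes. There wtJ1 was at 29.6% ± 3.56 (SD, n = 3), Uhrf1 KO at 4.30% ± 0.817, H730A at 7.38% ± 0.309 and F46A at 6.01% ± 1.08 (SD, n = 4 each), and 122 of 167, 89 of 147 and 97 of 147 tested sites fell, to be read beside the same shares.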

How the data were processed

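The deposited files hold, for each library, CpG sites with counts of C calls and of C plus T calls, and a fraction equal to their quotient, per the file headers. The submitters' processing notes name BSMAP 2.90, methylKit, Trim Galore 0.3.1 and the mm10 build, with no roles. Only CpG context is listed, so conversion could not be estimated, and the sources used here do not say how reads that match several copies were handled. Assignment of a value to 1 near-identical copy or host gene is therefore uncertain.

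Counts were used as deposited, sites absent from a file had 0 calls, and groups came from titles. Library levels were compared by exact two-sided permutation tests, adjusted by Benjamini-Hochberg over the 3 comparisons with wtJ1 and the 3 between mutants, with 95% intervals from inverting the test. Gene spans came from RefSeq (GRCm38.p6). The members and lists were chosen with earlier results of these data known.

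Single sites and stretches were tested with a quasi-binomial model with Pearson dispersion, moderated by squeezeVar of limma 3.58.1 in R 4.3.3 and not allowed below 1. For single sites in the form reported, the prior degrees of freedom were infinite in every comparison. All sites of a comparison thus shared a common dispersion, and the spread of a site's own replicates did not enter its p-value. In all, 4 forms were tried. The first, with every library in the residual degrees of freedom, failed on simulated data, since it called no changed site. The simulated counts had no spread between libraries and few changed sites, unlike these data. Here the first form called 5060 sparse sites in Uhrf1 KO against wtJ1, so its failure there does not show it unfit. On simulated data the other forms called changed sites, with more false calls than the nominal rate in Uhrf1 KO against wtJ1. In the form reported, a group fitted at 0 or 1 adds no degrees of freedom, and this rule is not in the plan. A score statistic with a coverage-trended prior was at first preferred, and a deviance with that prior was the fourth. The forms were compared with the counts of these data already seen. The one reported was then taken because it is nearest to the plan, and the range over all 4 stands beside the counts over all sparse sites, not beside those of gene lists.

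Named sites followed a rule: the 4 with most calls, then, among sites past the threshold with at least 3 libraries of 5 calls per group and no overlap of these, the largest differences, 1 per 1000 bp (6 lower and 4 higher against wtJ1, 4 each way between mutants), and the 6 highest in Uhrf1 KO with 40 calls per genotype. Sites on chromosome 18, 2 of the 36 by the rule among them, and a few other named sites are not reported here. A count of 0 allows 3 calls of the total. Python 3.11.15 was used.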

Additional observations from a re-analysis of the deposited data

Results flagged for a closer look

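The ratio of sparse to well-covered level differed between genotypes in each of the 6 comparisons as computed over all sparse sites, tested by exact two-sided permutation of the genotype labels (adjusted p = 0.0286 for each, 4 against 4 libraries, no overlap). The log2 differences were -0.22 for Uhrf1 KO against wtJ1, -0.076 for H730A against wtJ1, -0.18 for F46A against wtJ1, 0.15 for H730A against Uhrf1 KO, 0.047 for F46A against Uhrf1 KO and -0.10 for F46A against H730A. Of these, F46A against Uhrf1 KO turned sign within the same stretches (-0.011), and it, H730A against Uhrf1 KO, F46A against H730A and H730A against wtJ1 each lost the threshold in some choices of sites.

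Of 38 groups of 4 libraries checked for a sample far from the others, 3 held one, and about 1 in 20 does so by chance. At sparse sites of template position 49 one Uhrf1 KO library was at 9.16%. At position 65 one H730A library was at 8.99%, and at position 90 one was at 11.5%.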

How the results depend on the processing

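Same-numbered libraries did not deviate together (correlations from -0.118 to 0.0835), so the numbers were not taken to pair them. With the replicate block the pooled differences were, in the order Uhrf1 KO, H730A and F46A against wtJ1, H730A against Uhrf1 KO and F46A against H730A, -22.9, -19.8, -22.3, 3.15 and -2.55 points and the log2 ratios -0.225, -0.0763, -0.177, 0.149 and -0.101, with 0.0475 for F46A against Uhrf1 KO, none past the threshold because 4 pairs allow 0.125 at best. The block called 0 positions, 126, 0 and 2 sparse sites for H730A against Uhrf1 KO, F46A against Uhrf1 KO and F46A against H730A, and 4 stretches for the last. Without each replicate in turn the pooled differences, with F46A against Uhrf1 KO placed before F46A against H730A here and below, were -23.1 to -22.8, -20.1 to -19.5, -22.7 to -22.0, 2.79 to 3.44, 0.243 to 0.951 and -2.91 to -2.20 points, the log2 ratios -0.232 to -0.217, -0.0867 to -0.0671, -0.184 to -0.171, 0.138 to 0.158, 0.0398 to 0.0548 and -0.110 to -0.0907 (all libraries 0.0298 to 0.0471), and 0 positions passed. The smallest exact p for 3 against 4 libraries is 0.0571, so no position could pass. In the same refits sparse sites numbered 4677 to 4963, 3137 to 3431, 3378 to 4110, 219 to 328, 1 to 15 and 11 to 31, and sparse-only stretches 514 to 522, 472 to 486, 495 to 514, 45 to 88, 0 to 0 and 5 to 20. With wtJ1 replicates 1 and 2 averaged the wtJ1 differences were -23.0, -19.9 and -22.4 points and -0.224, -0.0757 and -0.177 in log2 ratio.

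Members off the template gave 2.73 points for H730A against Uhrf1 KO and -1.71 for F46A against H730A (adjusted p = 0.0857 each, exact permutation test). Log2 ratios that lost the threshold were, for F46A against Uhrf1 KO, 0.033 (position-matched), 0.033 (160 summed calls), 0.027 (fixed weights), 0.045 (membership without F46A replicate 3), 0.027 (5 calls in every library), 0.074 (sparse-only against well-only stretches), 0.148 as points, and -0.011 within the same stretches, where the sign turned. H730A against Uhrf1 KO lost it at 0.113 (same stretches), 0.143 (160 calls) and 0.140 (5 calls), F46A against H730A at -0.124, -0.111 and -0.112, and H730A against wtJ1 at -0.051 (fixed weights) and -0.079 (5 calls). Over all libraries the ratio passed at 0.047 (position-matched), 0.075 (160 calls), 0.059 (5 calls), 0.063 (sparse-only against well-only) and 0.750 points, and turned to -0.060 within the same stretches. The cause was not tested.

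Site counts with 40 calls per group were 1911, 1511 and 1561 against wtJ1 and 190, 9 and 18 between mutants, where fewer sites are tested. For H730A against Uhrf1 KO the form with every library in the degrees of freedom gave 21, the score form 147, Fisher's exact test 183 and limma 215. For F46A against Uhrf1 KO the first, score and trended forms gave 0, 0 and 1, limma 0 and the fit of all 16 libraries 6. For F46A against H730A the first and score forms gave 0 and 9, limma 2 and the fit of all 16 libraries 54. Stretch counts by Fisher's exact test were 197, 18 and 143 between mutants, and the score and trended forms gave 29 and 32 for F46A against H730A. Of 666 refits of 41 comparisons of single named sites, 531 kept the call, 135 lost it and 0 turned sign. The model forms, the membership without F46A replicate 3, the 5-call and the sparse-only settings were chosen after seeing the data.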

Other observations

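Pooled per library, the 29899 sites with too few calls for either set were at 26.2 to 26.7% in wtJ1 and 4.91 to 4.99% in Uhrf1 KO. They were at 7.29 to 8.86% in H730A and 4.41 to 6.36% in F46A. In wtJ1 these levels lay between those of sparse and well-covered sites. In Uhrf1 KO they lay above every sparse level and within the range of well-covered sites. In H730A and F46A they lay within the range of sparse sites.

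Of the sparse sites, 4 were at 40% or more in every genotype, named after their values were seen, and 3 of them lie off the amplicon template. They were chosen for their level, so they are a description and not a trait of sparse sites. Among well-covered sites, 3 of 10185 were at 50% or more in Uhrf1 KO. At chr17:70150448 in Dlgap1 all 36 calls in wtJ1, 22 of 22 in Uhrf1 KO, 25 of 26 in H730A and 10 of 10 in F46A were methylated. At chrX:73174756 the calls were 20 of 22, 19 of 19, 18 of 20 and 21 of 25. At chr3:79634634 they were 21 of 47, 16 of 34, 16 of 39 and 18 of 40, and at chr1:17389591, on the template, 32 of 46, 14 of 25, 18 of 28 and 15 of 23.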
